A study of Mus musculus with 6 samples.

Results

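Lrg1 and 6 further acute-phase genes that the transcription factor STAT3 is known to induce (Lcn2, Saa3, Hp, Orm1, Serpina3n and Socs3) were followed in RNA from the aortic valves of control mice and of caAcvr1:Nfatc1Cre mutants. These are 7 of the 23107 genes in the deposited count table, and all 7 passed the filter on low counts together with 15354 genes in all. The genes were chosen by name, and the set was selected on Lrg1 being lower in every mutant library, so that the Lrg1 difference is described here without a test. The study compared 3 control libraries, labelled wild type (WT), with 3 mutant libraries, labelled Acvr1:Nfatc1Cre. All 6 came from aortic valves of Outbred mice aged 4 months, with no other treatment given. Mutants carried a transgene for constitutively active Acvr1, a type I receptor for bone morphogenetic proteins, together with Cre expressed from the Nfatc1 locus, which removes a block on the transgene in the endocardium and its descendants and in cells of the leaflet–wall junction. According to the study's methods, a control could lack the transgene, the Cre or both. Which of these genotypes was sequenced, the sex of the mice and whether valves were pooled for a library are not given in the sources used here, so p-values measure only the spread between these libraries, which may in part be technical.

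The acute-phase response is a change in secreted proteins that follows infection or injury. Interleukin-6 and its relatives bind receptors that share the gp130 chain (Il6st), the kinases Jak1, Jak2 and Tyk2 then phosphorylate STAT3, and STAT3 enters the nucleus and induces its targets, often together with C/EBP factors and NF-kB. The liver is the main source of acute-phase proteins, but endothelial cells, fibroblasts, fat cells and myeloid cells also make some of them. LRG1, a secreted leucine-rich glycoprotein, is known in vessels for binding endoglin and changing TGF-beta signalling towards the ALK1 and Smad1/5 branch.

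The known inputs of these genes can be read against the bases just before their start sites. RefSeq windows on GRCm38.p6 (250 bases before to 50 after the start) were at hand for 5 of the 7 genes, Lrg1, Lcn2, Saa3, Serpina3n and Socs3. Each was searched on both strands for the STAT motif TTCNNNGAA, the C/EBP motif TTGCNNAA and the NF-kB motif. The upstream 250 bases are shown for Lrg1, on which the set was selected, and for the 3 genes with a match, each 5′ to 3′ on the strand of its gene, with the match in capitals. All 4 genes lie on the minus strand, and each RefSeq start lies inside the wider GENCODE span of its gene. The Lrg1 sequence is chr17:56121947-56122196, the Lcn2 sequence is chr2:32387740-32387989, the Saa3 sequence is chr7:46715677-46715926 and the Socs3 sequence is chr11:117969367-117969616.
Lrg1: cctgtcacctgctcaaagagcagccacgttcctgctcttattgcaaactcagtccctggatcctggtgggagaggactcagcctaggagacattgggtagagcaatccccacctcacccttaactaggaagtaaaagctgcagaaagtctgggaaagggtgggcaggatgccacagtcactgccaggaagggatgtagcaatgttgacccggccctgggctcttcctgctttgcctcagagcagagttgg
Lcn2: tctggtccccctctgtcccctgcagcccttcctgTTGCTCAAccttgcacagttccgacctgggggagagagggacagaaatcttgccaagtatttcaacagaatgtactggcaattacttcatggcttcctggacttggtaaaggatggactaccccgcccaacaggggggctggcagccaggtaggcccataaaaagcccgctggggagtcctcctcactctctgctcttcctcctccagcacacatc
Saa3: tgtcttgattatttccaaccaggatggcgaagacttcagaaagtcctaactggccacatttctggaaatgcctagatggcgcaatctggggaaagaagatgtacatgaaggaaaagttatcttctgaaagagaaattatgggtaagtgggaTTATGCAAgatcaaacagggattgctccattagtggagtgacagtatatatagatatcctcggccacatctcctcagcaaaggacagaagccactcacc
Socs3: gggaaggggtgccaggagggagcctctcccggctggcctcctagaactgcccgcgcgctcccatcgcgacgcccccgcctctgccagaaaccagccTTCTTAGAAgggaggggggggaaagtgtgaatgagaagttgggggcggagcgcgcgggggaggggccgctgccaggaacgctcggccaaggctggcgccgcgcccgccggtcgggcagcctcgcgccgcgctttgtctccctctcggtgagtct

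Socs3 was the 1 gene of these 5 with a STAT match, TTCTTAGAA, which lies from -154 to -146 relative to the start and reads as a match on both strands. Of all 32851 RefSeq windows of the same length, 8.3% held this motif. Lcn2 held the C/EBP match TTGCTCAA from -216 to -209, and Saa3 held 1 on the opposite strand, TTATGCAA in the printed direction, from -99 to -92. The C/EBP motif was in 10.8% of all windows and the NF-kB motif in 8.46%, and no match to the NF-kB motif was found in these 5. Lrg1 and Serpina3n matched none of the 3 motifs. These matches are letters only, and their absence from a window says nothing about sites elsewhere.

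The libraries held between 32218345 fragments (mutant replicate 3) and 55728852 fragments (control replicate 1). Levels are given in CPM, the count after each library is brought to the same total, scaled by the TMM method of edgeR, and a count of 3 corresponds to 0.0560 to 0.0942 CPM. The edgeR quasi-likelihood test called 0 of the 15354 genes tested at an adjusted p under 0.05, with 529 at an unadjusted p under 0.05, and DESeq2 called 26. Markers of valve interstitial cells and fibroblasts such as Col1a1 and Dcn summed to 13290 to 17180 CPM over 8 of 8 genes, and cardiac muscle markers such as Myh6 to 11910 to 38290 CPM, so that each library held heart muscle RNA next to valve RNA. The libraries numbered 3 in both groups stood apart in how near-identical gene copies were listed: the alpha-globin copy Hba-a1 was at 0 CPM in both and at 882 to 7406 CPM elsewhere, while Hba-a2 was at 2700 and 3570 CPM in these libraries and at most 0.0198 CPM elsewhere. None of the 7 genes overlaps another annotated gene.

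Lrg1 was lower in mutants, and 1 of the 7 acute-phase genes separated the groups in this direction. Lrg1 lies on chromosome 17 of GRCm38 (also called mm10) from 56119678 to 56122001 on the minus strand. It was at 135, 161 and 121 CPM in controls 1, 2 and 3, compared with 70.7, 95.8 and 73.6 CPM in mutants 1, 2 and 3. The highest mutant library stood at 0.79 of the lowest control library, and the spread within each group was small, 14.5% of the mean in controls and 17.2% in mutants. The group means were 139 ± 20.2 CPM (SD, n = 3) in controls and 80.0 ± 13.7 CPM (SD, n = 3) in mutants, a difference of -42.4% of the control mean, and the log2 fold change was -0.80 with a standard error (SE) of 0.16. Each value rests on 2344 to 8133 fragments, so counting error is a small part of it. As the set was selected on this contrast, nothing is read from it. In bulk tissue, fewer cells of a type and less RNA per cell cannot be told apart.

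Of all genes tested, 4.83% were lower in all 3 mutants than in all 3 controls and 4.04% were higher in all 3. Among the other 6 acute-phase genes, 0 separated the groups in either direction and 0 were called by edgeR, against 0% of all genes. Their adjusted p was 0.999 in each case, and by DESeq2 it was 1 in each case. The mean was lower in mutants for Lcn2, Saa3 and Hp and higher for Orm1, Serpina3n and Socs3. With 3 libraries a group, differences of the size these 6 showed were not told apart from the spread between libraries.

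**Figure D1:**
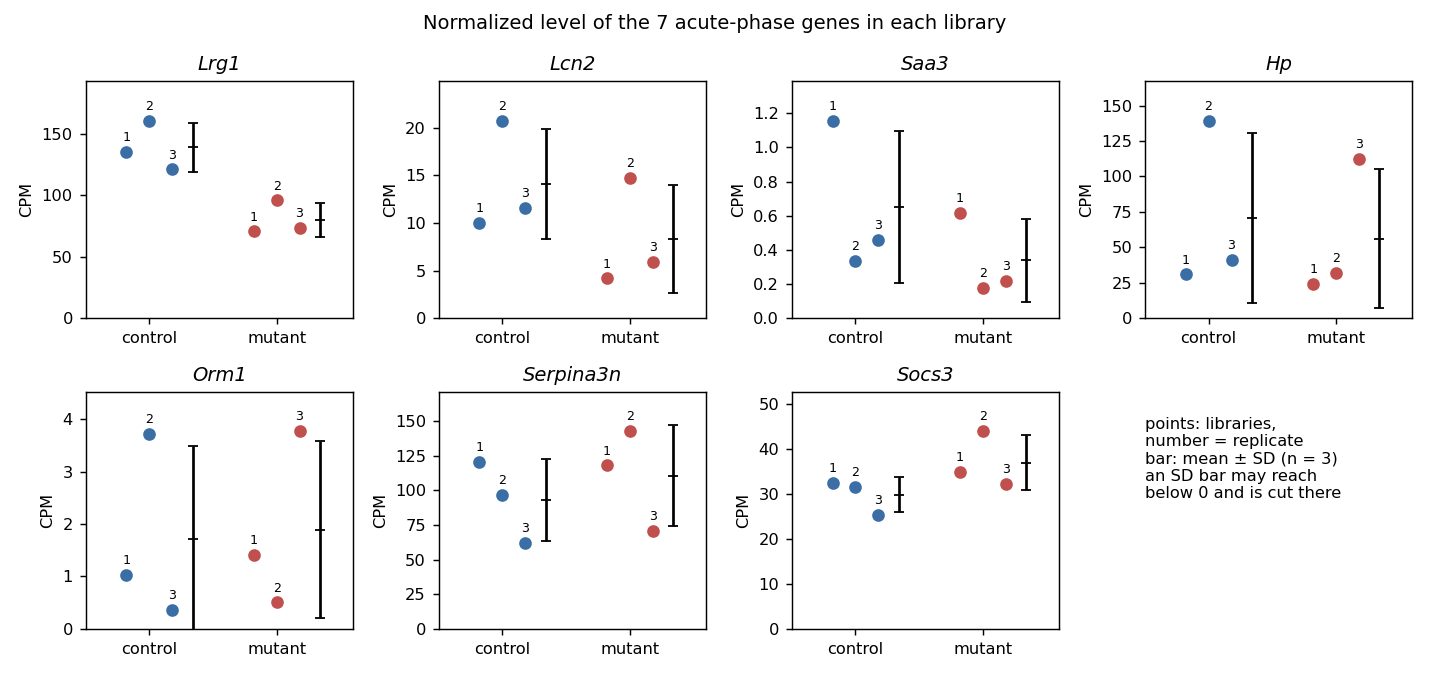
Level of the 7 acute-phase genes in CPM (y axis, from 0, a scale of its own for each gene) in control and mutant libraries (x axis); points are single libraries with their replicate number, and bars are the mean ± SD of 3 libraries. The Lrg1 points of the mutants, 70.7 to 95.8 CPM, all lie below those of the controls, 121 to 161 CPM, and the points of the other 6 genes overlap.

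Lcn2 encodes lipocalin 2, a secreted protein that binds the iron carriers of bacteria, and lies on chromosome 2 from 32384633 to 32388252 on the minus strand. It stood at 10.04, 20.8 and 11.6 CPM in controls 1, 2 and 3, compared with 4.19, 14.8 and 5.93 CPM in mutants 1, 2 and 3. Mutant replicates 1 and 3 were below every control, while mutant replicate 2 was above control replicates 1 and 3, so the groups overlapped. The means were 14.1 ± 5.80 CPM in controls and 8.29 ± 5.66 CPM in mutants (SD, n = 3 each). The log2 fold change of -0.77 (SE 0.50, adjusted p = 0.999 by edgeR) was close in size to that of Lrg1 but with a standard error larger than that of Lrg1. Without mutant replicate 2 it was -1.48, without control replicate 2 it was -0.38 and without mutant replicate 1 it was -0.45.

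Saa3 encodes a serum amyloid A protein made mostly outside the liver, by macrophages and fat cells among others, and lies on chromosome 7 from 46711998 to 46715700 on the minus strand. It was the gene of the set with the fewest fragments, with 62, 17 and 21 counts in controls 1, 2 and 3, compared with 32, 7 and 7 counts in mutants 1, 2 and 3. These correspond to 1.16, 0.336 and 0.457 CPM in controls and 0.618, 0.177 and 0.220 CPM in mutants. Mutant replicates 2 and 3 were below every control, whereas mutant replicate 1 was above control replicates 2 and 3. The log2 fold change was -0.91 (SE 0.71, adjusted p = 0.999 by edgeR), the lowest of the 7. It was -0.20 without control replicate 1, -1.71 without mutant replicate 1 and -0.60 without mutant replicate 2. Of all genes tested, 1.92% had a log2 fold change at or below that of Saa3 and 2.83% at or below that of Lcn2.

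Hp encodes haptoglobin, which binds free haemoglobin in plasma, and lies on chromosome 8 from 109575128 to 109579172 on the minus strand. It stood at 30.9, 139 and 40.9 CPM in controls 1, 2 and 3, compared with 24.3, 31.7 and 113 CPM in mutants 1, 2 and 3. One library of each group was high, control replicate 2 and mutant replicate 3, and the other libraries lay between 24.3 and 40.9 CPM. The log2 fold change was -0.33 (SE 0.75, adjusted p = 0.999 by edgeR), and it was 0.65 without control replicate 2, -1.33 without mutant replicate 3 and 0.03 without mutant replicate 1.

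Orm1 encodes orosomucoid 1, an acid glycoprotein of plasma, and lies on chromosome 4 from 63344560 to 63348163 on the plus strand. It was at 1.03, 3.72 and 0.370 CPM in controls 1, 2 and 3, compared with 1.41, 0.506 and 3.77 CPM in mutants 1, 2 and 3, from 17 to 188 counts. The same libraries were high as for Hp, and the highest library was 10.2 times the lowest, the widest range of the 7 genes. The log2 fold change was 0.14 (SE 0.96, adjusted p = 0.999 by edgeR), was 1.42 without control replicate 2 and turned to -0.82, -0.34 and -0.12 without mutant replicate 3, control replicate 3 and control replicate 1. Its near copies were almost absent, with 0 to 3 counts for Orm2 and 3 to 9 for Orm3 in each library.

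Serpina3n encodes a secreted inhibitor of serine proteases such as granzyme B, and lies on chromosome 12 from 104406729 to 104414329 on the plus strand, in a cluster of close copies. It stood at 121, 96.6 and 61.8 CPM in controls 1, 2 and 3, compared with 118, 143 and 70.8 CPM in mutants 1, 2 and 3. It was lowest in the library numbered 3 of both groups, the libraries in which gene copies were listed differently, and in the same libraries its copies Serpina3k and Serpina3m had 0 to 20 counts against 42 to 172 elsewhere. The part of that listing in the Serpina3n level was not tested. The means were 93.0 ± 29.6 CPM in controls and 110 ± 36.5 CPM in mutants (SD, n = 3 each), with a log2 fold change of 0.25 (SE 0.32, adjusted p = 0.999 by edgeR). Without both libraries numbered 3 it was 0.26, but it was 0.02 without control replicate 3 alone and 0.49 without mutant replicate 3 alone. It was also 0.02 without mutant replicate 2 and 0.48 without control replicate 1.

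Socs3 encodes the intracellular inhibitor of gp130 signalling that STAT3 itself induces, and lies on chromosome 11 from 117966079 to 117970047 on the minus strand. It was at 32.5, 31.6 and 25.3 CPM in controls 1, 2 and 3, compared with 34.8, 43.9 and 32.1 CPM in mutants 1, 2 and 3. Mutant replicates 1 and 2 were above every control, and mutant replicate 3 lay between control replicates 2 and 1. This gene, with the STAT match printed above, had the smallest spread of the 7, 13.1% of the mean in controls and 16.7% in mutants. The log2 fold change was 0.31 (SE 0.16, adjusted p = 0.999 by edgeR), opposite in sign to that of Lrg1, and it was 0.17 without mutant replicate 2, 0.20 without control replicate 3 and 0.40 without mutant replicate 3. Dissociation and handling stress is a program that also raises Socs3 in many tissues. The 8 genes listed for it each had a higher mean in mutants, as did 52.2% of all genes. Of these 8, 0 separated the groups, against 4.04% of all genes that were higher in every mutant. The sum of the list was 660 to 929 CPM in controls and 879 to 1078 CPM in mutants. Its mean log2 level had an r with Socs3 of 0.52 over the 6 libraries and of 0.11 with the group means subtracted. Orm1 had the highest r of the 7 genes with this level, 0.65 and 0.83. The part of this program in the Socs3 and Orm1 levels was not tested.

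**Figure D2:**
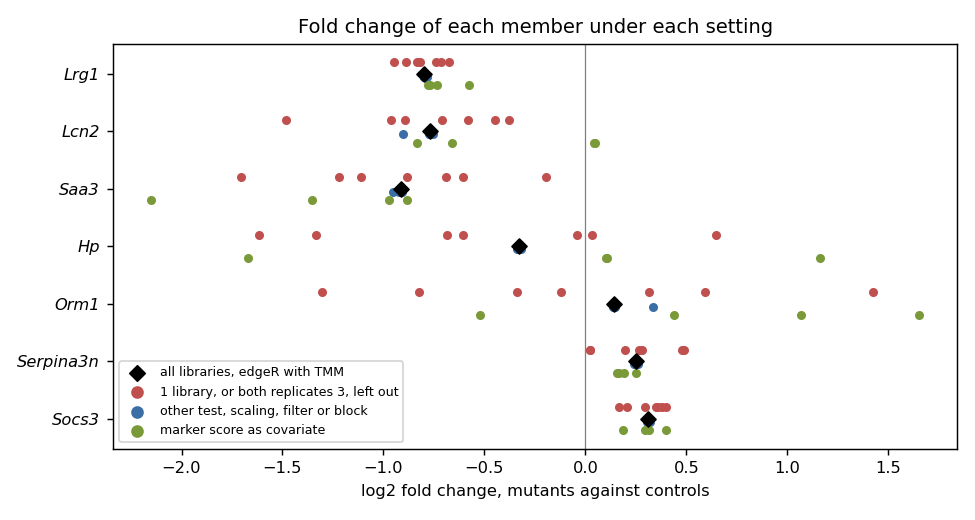
Log2 fold change, mutants against controls (x axis), of each of the 7 genes (y axis) in the fit over all 6 libraries (black diamonds) and in the other settings (coloured points). The points of Serpina3n and Socs3 stay above 0 and those of Hp and Orm1 lie on both sides of 0. The Lrg1 points lie between -0.95 and -0.58. In the settings without a marker score, their side follows from how the set was selected.

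Per length of exon, Lrg1 had the highest mean of the 7 genes in controls. Divided by the exon length in the GENCODE annotation, its mean level in controls was 98.8 CPM per kb, followed by Serpina3n at 45.1, Hp at 43.8, Socs3 at 10.3, Lcn2 at 5.39, Orm1 at 2.20 and Saa3 at 0.249 CPM per kb. In mutants Lrg1 ran from 50.2 to 68.1 CPM per kb and Serpina3n from 34.3 to 69.1 CPM per kb, so that these neighbours overlapped there, whereas the lowest Lrg1 control, at 86.0, was above the highest Serpina3n control, at 58.4. Hp overlapped Lrg1 in both groups, at 86.8 CPM per kb in control replicate 2 and 70.2 in mutant replicate 3. Serpina3n and Hp overlapped in both groups, and so did Lcn2 and Orm1. The liver forms of the same families were nearly undetected, with 0 to 3 counts of Saa1 and 0 to 1 of Saa2 in each library, and albumin (Alb), the main product of hepatocytes, stood at 0 to 0.243 CPM.

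The 7 genes did not vary as 1 block. Across the 6 libraries, Lrg1 and Lcn2 had a Pearson r of 0.84 on log2(CPM + 0.5), and 0.92 with the group means subtracted. Hp and Orm1 had an r of 0.80 and 0.84 on the same scale, and Serpina3n and Socs3 an r of 0.84 and 0.91. These correlations describe 6 libraries that share tissue makeup and depth, and they carry no test. Lrg1 and Socs3 had an r of -0.33 over all libraries and of 0.85 with the group means subtracted. Lrg1 and Saa3 had an r of 0.28 and, with the group means subtracted, of -0.47. Each r of Lrg1 over all libraries contains the difference on which the set was selected, and those with the group means subtracted do not.

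**Figure D3:**
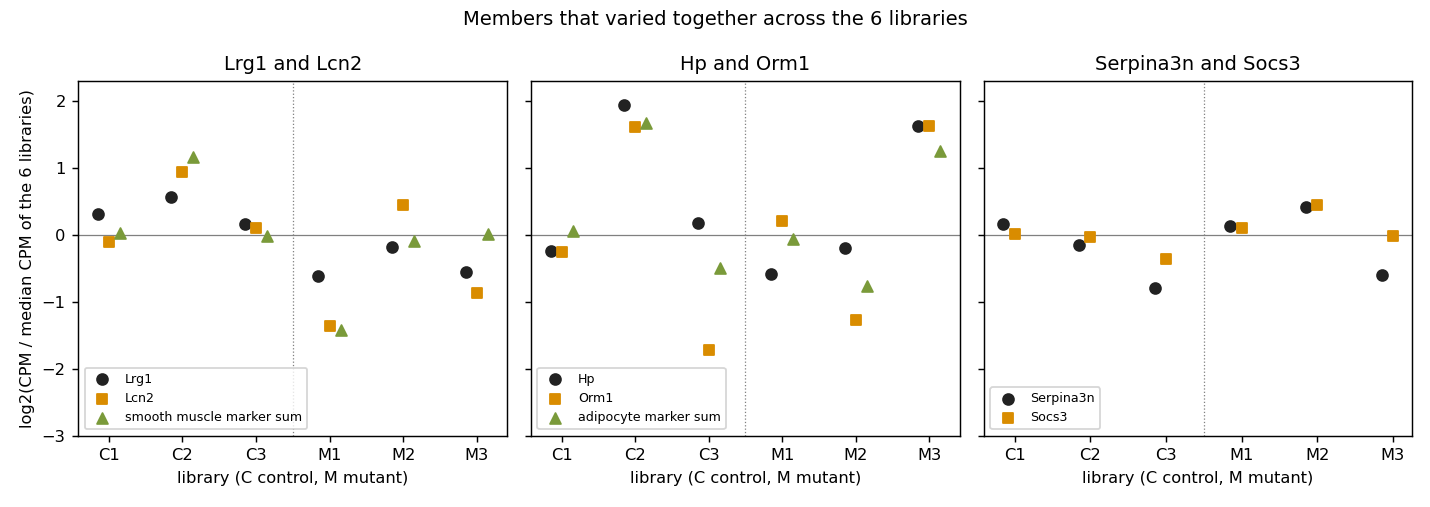
Level of 3 pairs of genes in each library, as log2 of CPM over the gene's median across the 6 libraries (y axis), for control (C) and mutant (M) replicates 1 to 3 (x axis); triangles give the summed level of a marker list scaled in the same way. Hp and Orm1 are both highest in C2 and M3, as is the adipocyte marker sum, and Lrg1 and Lcn2 are both highest in C2 among the controls and in M2 among the mutants.

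Marker lists of other cell types moved with some of these genes. The 8 adipocyte markers, such as Adipoq, summed to 377, 1159 and 257 CPM in controls 1, 2 and 3, compared with 349, 214 and 870 CPM in mutants 1, 2 and 3, with control replicate 2 and mutant replicate 3 high as for Hp and Orm1. Each of the 8 had a lower mean in mutants, where 52.2% of all genes had a higher mean. Of the 8, 0 separated the groups, against 4.83% of all genes that were lower in every mutant. The r with the mean log2 level of the list was 0.92 for Orm1 and 0.81 for Hp, and with the group means subtracted it was 0.996 and 0.81. Hp also had an r of 0.88 with the 7 mesothelial markers measured, which summed to 122 to 1300 CPM in controls and 148 to 558 CPM in mutants. What part adipose or mesothelial tissue had in the Hp and Orm1 levels was not tested. With the adipocyte score as a covariate, the log2 fold change was 0.10 for Hp and 1.07 for Orm1.

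Lrg1 and Lcn2 went with the smooth muscle markers, at an r of 0.80 and 0.84 over all libraries and of 0.70 and 0.75 with the group means subtracted. On the same 2 measures Hp had an r of 0.74 and 0.82, and Saa3 of -0.22 and -0.785. The first value for Lrg1 contains the difference on which the set was selected. The 6 smooth muscle markers, such as Myh11 and Acta2, were each lower in mutants and 3 of 6 separated the groups, against 4.83% of all genes, without a call. Their sum was 6081, 13420 and 5902 CPM in controls 1, 2 and 3, compared with 2231, 5604 and 6011 CPM in mutants 1, 2 and 3, so that control replicate 2 was highest and mutant replicate 1 lowest. With the smooth muscle score as a covariate, the log2 fold change of Lrg1 was -0.58 and that of Lcn2 was 0.05. The mean log2 level of this list was 9.386, 10.51 and 9.378 in controls and 7.946, 9.195 and 9.316 in mutants. It thus separated the groups itself, and such a fit cannot cleanly divide its part from that of the genotype. The part of smooth muscle content in the Lrg1, Lcn2, Hp and Saa3 levels was not tested further.

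All 8 macrophage markers measured had a higher mean in mutants, as did 52.2% of all genes, and 4 separated the groups, against 4.04% of all genes. Their sum was 1302 to 1448 CPM in controls and 1716 to 1866 CPM in mutants, and the macrophage lysozyme Lyz2 was among the genes DESeq2 called (adjusted p = 0.00506), with an adjusted p of 0.999 by edgeR. Lrg1 had an r of -0.87 with the macrophage list and of -0.03 with the group means subtracted; the first value contains the Lrg1 difference on which the set was selected. Endothelial cells are a known source of Lrg1 in vessels, and their markers summed to 2200 to 3280 CPM in controls and 2560 to 3060 CPM in mutants and had an r with Lrg1 of 0.36, which also contains the selected difference, and of 0.53 with the group means subtracted. Lrg1 and Lcn2 are also stored in neutrophil granules. The neutrophil markers summed to 8.002 to 23.9 CPM in controls and 8.24 to 29.9 CPM in mutants, and overlapped between the groups in all 9 genes tested, of which 6 had a higher and 3 a lower mean in mutants. The 3 lower ones were the granule genes Ltf, Ngp and Camp, at a log2 fold change of -2.35, -2.05 and -1.22, each highest in control replicate 1, at 3.45, 7.02 and 2.26 CPM. S100a8 and S100a9 had log2 fold changes of 1.45 and 1.47, and the granule genes Elane and Mpo stood at 0.157 CPM or less in every library. The part of neutrophils in the Lrg1 and Lcn2 levels was not tested.

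Serpina3n and Socs3 went with the red cell list, at an r of 0.92 and 0.70 with its mean log2 level and of 0.97 for both with the group means subtracted. This mean holds Hbb-b1, Hba-a1 and Alas2, but not the alpha-globin copy Hba-a2, which did not pass the filter. In the libraries numbered 3, Hba-a1 was at 0 CPM, and the mean stood at 4.95 and 5.44 against 7.63 to 10.5 elsewhere. These r values thus cannot be told apart from the way the copies were listed. The summed level, which does not depend on the copy listed, was 8844, 2356 and 3273 CPM in controls 1, 2 and 3 and 1106, 7547 and 4472 CPM in mutants 1, 2 and 3. Serpina3n was high in mutant replicate 1, where this sum was lowest. The part of blood content in the Serpina3n and Socs3 levels was not tested.

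Upstream of the 7 genes, none of the ligands of gp130 was called. The counts of separated genes in this and the following lists stand against 4.83% of all genes for lower and 4.04% for higher in every mutant. Il6 was at 0.243, 0.297 and 0.391 CPM in controls 1, 2 and 3, compared with 0.888, 0.127 and 0.377 CPM in mutants 1, 2 and 3, so that the groups overlapped. Oncostatin M (Osm) was the 1 ligand of the 7 tested that separated the groups, at 0.373, 0.316 and 0 CPM in controls and 1.08, 0.430 and 0.377 CPM in mutants. Its log2 fold change of 1.44 (SE 1.03, adjusted p = 0.999 by edgeR) rests on 0 to 56 counts a library, and was 0.79 without mutant replicate 1 and 0.88 without control replicate 3. Lif, leukaemia inhibitory factor, had a log2 fold change of -0.16 (SE 0.25), and Il11 of 0.17 (SE 0.40).

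The shared receptor and the relay from gp130 to STAT3 were also without a call. Il6st, encoding gp130, was at 523, 727 and 511 CPM in controls and 544, 474 and 387 CPM in mutants, with a log2 fold change of -0.33 (SE 0.20). Stat3 itself was at 274, 264 and 271 CPM in controls and 308, 250 and 238 CPM in mutants, with a log2 fold change of -0.02 (SE 0.13), and Jak1, Jak2 and Tyk2 lay between -0.11 and -0.04. STAT3 acts when phosphorylated, and the RNA level does not report that. Of the 14 genes of the receptors and the relay, 4 had a higher mean and 10 a lower mean in mutants, where 52.2% of all genes had a higher mean, and 2 separated the groups, both higher, against 4.04% of all genes. Cntfr, the receptor chain for ciliary neurotrophic factor, was at 13.8 to 21.1 CPM in controls and 24.6 to 48.9 CPM in mutants, with a log2 fold change of 0.97 (SE 0.29, adjusted p = 0.999 by edgeR). Ptpn11, which encodes the phosphatase SHP2 that binds gp130 at the site of SOCS3, had a log2 fold change of 0.51 (SE 0.21, adjusted p = 0.999 by edgeR). Without mutant replicate 3, Cntfr stood at 0.60 and Ptpn11 at 0.22.

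LRG1 acts on endothelial cells through endoglin and receptors of the TGF-beta family, and these genes were measured at ample depth. Endoglin (Eng) was at 689, 852 and 852 CPM in controls and 1003, 993 and 752 CPM in mutants, with a log2 fold change of 0.20 (SE 0.19). Acvrl1, which encodes ALK1 and is a different gene from the Acvr1 of the transgene, had a log2 fold change of -0.19 (SE 0.20), Tgfbr1 of -0.14 and Tgfbr2 of -0.06. The groups overlapped for each of these 4 receptors. Of the 14 genes of this list that were tested, Smad1 and Smad4 were lower in every mutant, at a log2 fold change of -0.43 (SE 0.12) and -0.22 (SE 0.12), and neither was called (adjusted p = 0.999 by edgeR). Without control replicate 2, Smad4 was at -0.11. Smad6, a target and inhibitor of the Smad1/5 branch, was at 218 to 293 CPM in controls and 283 to 383 CPM in mutants, and the groups overlapped.

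**Figure D4:**
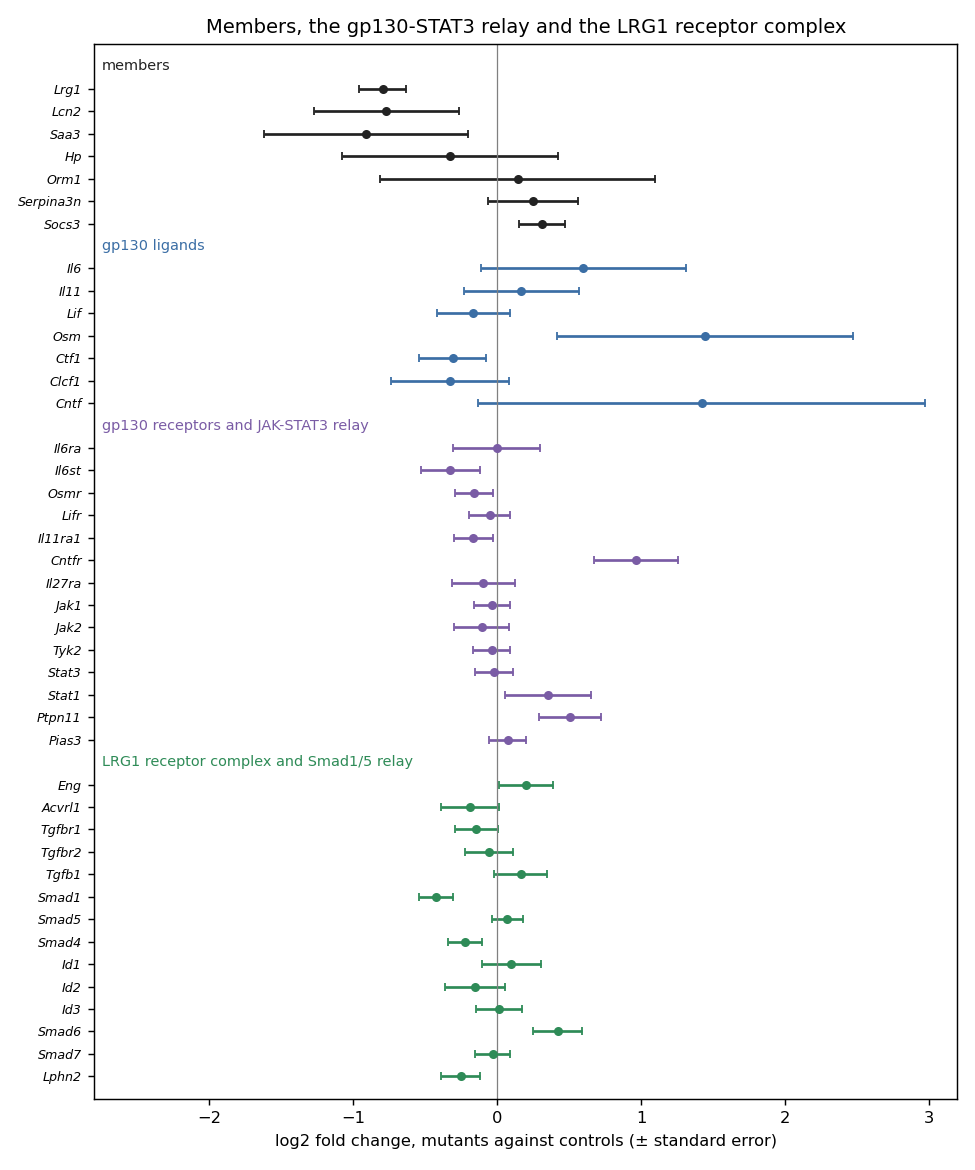
Log2 fold change, mutants against controls, with its standard error (x axis) for the 7 acute-phase genes and the tested genes of the gp130 ligands, the gp130 receptors and relay and the LRG1 receptor complex (y axis). Stat3 lies at -0.02, Cntfr at 0.97 and Smad1 at -0.43, and none of the genes shown was called by edgeR.

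Among 18 other known targets of STAT3, 9 had a higher and 9 a lower mean in mutants. Cebpb, which encodes a C/EBP factor of the acute-phase response, was lower in every mutant, at 124, 116 and 119 CPM in controls and 100, 89.5 and 99.4 CPM in mutants, with a log2 fold change of -0.31 (SE 0.09, adjusted p = 0.999 by edgeR). The kinase gene Pim1 at -0.49 (SE 0.24) and the receptor gene Il4ra at -0.45 (SE 0.20) also separated the groups, and without control replicate 2 Il4ra was at -0.21. Bcl3 and Bcl2l1, targets of the same factor, both had a log2 fold change of 0.00. Thus 3 of these 18 genes, 16.7%, were lower in every mutant, against 4.83% of all genes, a count given without a test.

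Of 26 other acute-phase genes, 15 passed the filter, 8 with a higher and 7 with a lower mean in mutants. Lbp, which encodes the protein that carries bacterial lipopolysaccharide to its receptor, was the 1 that separated the groups, at 67.8, 81.1 and 72.8 CPM in controls and 49.8, 64.8 and 52.9 CPM in mutants, with a log2 fold change of -0.40 (SE 0.13, adjusted p = 0.999 by edgeR). Complement C3 at -0.05 and ceruloplasmin (Cp) at -0.31 overlapped between the groups. Among 15 genes of the NF-kB and interleukin-1 pathway, Rela was the 1 that separated the groups, with a log2 fold change of -0.17 (SE 0.10), and of 11 glucocorticoid targets it was Hif3a, at 0.261 to 0.280 CPM in controls and 0.557 to 1.26 CPM in mutants, with a log2 fold change of 1.73 (SE 0.46).

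Genes for receptors and partners of these proteins were mixed. The lipocalin receptor gene Slc22a17 was higher in every mutant, at a log2 fold change of 0.30 (SE 0.14; 0.18 without control replicate 2), and so was Hmox1, which encodes the enzyme that degrades haem, at 0.45 (SE 0.17). Lepr, the leptin receptor to which orosomucoid has been reported to bind, was at 26.3 to 36.2 CPM in controls and 17.8 to 22.4 CPM in mutants, with a log2 fold change of -0.63 (SE 0.16, adjusted p = 0.999 by edgeR). Ager was lower in every mutant at under 1.05 CPM, with a log2 fold change of -0.29 (SE 0.34). Cd163, the macrophage receptor for haptoglobin with haemoglobin, was at 13.7 to 24.0 CPM in controls and 21.8 to 38.1 CPM in mutants and overlapped. Of the 13 partner genes tested, 10 had a higher and 3 a lower mean in mutants.

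The tested relatives of the 7 genes overlapped between the groups with 1 exception. Of 22 paralogs, 15 passed the filter, and Serpina3i, a near copy of Serpina3n with 1 to 29 counts a library, was higher in every mutant, with a log2 fold change of 2.14 (SE 0.75, adjusted p = 0.999 by edgeR). It passed the filter only through the 3 mutant libraries, so that its difference is tied to the filter, and it was no longer tested when a mutant library was left out. Its reads may be shared with other copies of the cluster. Of the other 7 inhibitors of the Socs family, all overlapping between the groups, those with the largest log2 fold changes were Socs2 at a log2 fold change of 0.34 (SE 0.17), Cish at 0.23 (SE 0.25) and Socs1 at 0.16 (SE 0.16). Socs5 and Socs6 stood at 0.06 and 0.01, and Socs4 and Socs7 at -0.04 and -0.12. Over the 8 pathway lists together, with each gene counted once, 107 genes passed the filter. Every mutant was lower for 9 of them (8.41%, against 4.83% of all genes tested) and higher for 6 (against 4.04% of all genes tested), and 0 were called. Their median log2 fold change was 0.00, against 0.01 over all genes tested.

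None of the 5 genes most like Lrg1 across the libraries was an acute-phase gene of the lists above. So few of 13693 genes cannot tell whether Lrg1 goes with those lists. Among 13693 genes with a mean of at least 1 CPM, the 5 with the highest r to Lrg1 over the 6 libraries were Aktip (0.99), Slc45a3 (0.99), Flot2 (0.99), Gm13446 (0.98) and Zfp109 (0.98). Their log2 fold changes ran from -0.10 for Aktip to -1.32 for Gm13446. This ranking over all libraries contains the Lrg1 difference on which the set was selected. With the group means subtracted, the 5 highest were Fam76a, Dfna5, Galnt12, Rbpj and A130049A11Rik, each with an r of at least 0.99. Rbpj encodes the DNA-binding factor of the Notch pathway. Over 6 libraries and this many genes, values this high describe the order of the libraries and no more.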

How the data were processed

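The authors prepared libraries with the Illumina TruSeq RNA kit, which does not mark strand, and deposited 1 table of estimated counts (fragments per gene) from Cuffdiff. The submitters' processing notes name TopHat2 2.0.13, Bowtie2 2.2.1 and Cuffdiff 2.1.1 with mm10. Values that were not whole, 1.66% to 1.87% in each library, were rounded; this touched 0 of the 42 values of the 7 genes.

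Genes reaching 10 counts in 3 or more of the 6 libraries were tested with edgeR 4.0.16 in R 4.3.3 (TMM, two-sided quasi-likelihood F test, Benjamini-Hochberg over 15354 genes), without covariates; the common biological coefficient of variation was 0.278. DESeq2 1.42.0, other scalings, no filter, a replicate block, marker scores and leaving out libraries were alternatives. Groups separate where every mutant CPM lies below, or above, every control CPM. The fit was tested on simulated counts, and nothing about the number of genes called in these data is read from that. The members, lists and rules were chosen with earlier results of these data known. Besides the 7 genes, those named are tested paralogs, listed genes that separate, the gp130 and LRG1 receptor lists, and the 5 most like Lrg1; other names were chosen after their values were seen. Exon lengths come from GENCODE vM21.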

Additional observations from a re-analysis of the deposited data

How the results depend on the processing

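The call of 0 genes by edgeR held in every setting but the DESeq2 test, which gave 26 genes; the cause was not tested. Over 16 alternatives a gene, the direction held in 16 of 16 for Saa3, Serpina3n and Socs3, in 14 for Lcn2 and in 11 for Hp and Orm1. That of Lrg1 is not counted, as the selection fixed it in the settings without a marker score. With the adipocyte, smooth muscle, endothelial and macrophage scores, Lrg1 was -0.78, -0.58, -0.77 and -0.74. Hp turned to 0.65 without control replicate 2, 0.03 without mutant replicate 1, 0.10, 1.16 and 0.11 with the adipocyte, smooth muscle and endothelial scores. Orm1 turned to -0.12, -0.34 and -0.82 without control replicate 1, control replicate 3 and mutant replicate 3, to -1.30 without replicate 3 of both groups and to -0.52 with the macrophage score. The smooth muscle score itself separates the groups. With it Saa3 was -2.15, Orm1 1.65, Osm 0.92, Il4ra -0.09, Slc22a17 0.13, Lbp -0.24, Smad1 -0.27 and Rela -0.10. Lcn2 turned to 0.049 with the smooth muscle and 0.043 with the macrophage score. With the macrophage score, which itself separates the groups, Cntfr was -0.78, Ptpn11 -0.71 and Smad4 0.23. Without a turn of sign, the same score moved Hp to -1.67, Pim1 to -1.39, Saa3 to -1.36 and Hmox1 to 0.85. It also moved Socs3 to 0.18, Slc22a17 to 0.10, Smad1 to -0.23 and Lbp to -0.23. The scores and the omission of both replicates 3 were chosen after seeing the data, and the cause of these turns was not tested.

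With 1 library left out, the log2 fold change ran from -0.95 to -0.68 for Lrg1, -1.48 to -0.38 for Lcn2, -1.71 to -0.20 for Saa3, -1.33 to 0.65 for Hp, -0.82 to 1.42 for Orm1, 0.02 to 0.49 for Serpina3n and 0.17 to 0.40 for Socs3. Separated genes then numbered 1239 to 1580 lower and 1195 to 1500 higher, and 2139 and 2021 without replicate 3 of both groups, since fewer libraries separate more easily. Of the 7 genes, 1 to 2 were lower (Saa3 without mutant replicate 1, Lcn2 without mutant replicate 2) and 0 to 1 higher (Socs3 without control replicate 1, mutant replicate 3 or both replicates 3).

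The replicate block left 0 genes called and gave -0.80 for Lrg1, -0.90 for Lcn2, -0.95 for Saa3, -0.34 for Hp, 0.34 for Orm1, 0.24 for Serpina3n and 0.31 for Socs3. Same-numbered samples deviated together at an r of 0.373, 0.171 and 0.0194, and not every sample correlated best with its own number, so the numbers were not taken as a pairing. Depth limits Saa3 and Orm1 most, at 7 to 188 counts a library. Estimated counts were taken as fragment counts, so the authors' assignment of fragments between copies is not part of the error.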

Other observations

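Values chosen after they were seen set the libraries numbered 3 apart for more than the globin genes. Serpina3k had 59, 52 and 0 counts in controls 1, 2 and 3 against 52, 42 and 1 in mutants 1, 2 and 3, and Serpina3m had 172, 129 and 13 against 149, 112 and 20. The gp130 ligand gene Cntf was at 3.15 and 7.35 CPM in control replicate 3 and mutant replicate 3, at 1.97 CPM in mutant replicate 1 and at most 0.257 CPM in the others.

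Lrg1 and Lcn2 also went against the cardiac muscle markers within the groups, at an r of -0.90 and -0.86 with the group means subtracted, over 6 libraries in which the summed cardiac muscle level ran from 11910 to 38290 CPM.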
